A study of Mus musculus with 24 samples.

Results

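The Mir9 and Mir124 loci encode microRNAs of the nervous system, and their counts were followed in small RNA libraries of mouse embryonic stem cells (mESC) and of neural progenitor cells (NPC) derived from them. The members were the annotated genes named Mir9-1, Mir9-2 and Mir9-3 and the genes whose symbol starts with Mir124 and belongs to that family. These were 8 of the 55335 genes in the table: 3 Mir9 loci, 3 Mir124 loci and 2 host transcripts of Mir124 loci. Mir1247 and Mir1249, which share only the letters of the symbol, had no count in any library and were left out. The study set out to relate the length of the CAG repeat in Htt, the Huntington's disease gene, to RNA processing.

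Each cell type was represented by 6 genotypes with 2 libraries each, 24 libraries in 12 groups. Cells without Htt (knockout, KO) and wild-type cells (WT) stood beside an allelic series of 4 knock-in genotypes, heterozygous for an Htt allele whose CAG repeat number gives the name (Q20, Q50, Q92, Q111). The repeat of Q92 is given as 92 in titles but as 89 where the culture of the lines is described. The mESC grew with leukemia inhibitory factor on a feeder layer of irradiated mouse fibroblasts, and the NPC were kept on laminin in medium with FGF and EGF. The labels name 1 line for each genotype, so genotype and line cannot be told apart. The labels call the libraries biological samples but do not say that they came from separate cultures, so the p-values measure the spread between these samples, which may be technical.

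A microRNA is cut from a hairpin by Drosha and Dicer and is loaded into an Argonaute protein, where its seed, the stretch near the 5′ end, pairs with sites in the 3′ untranslated regions of mRNAs. miR-9 is made in neural progenitors and neurons of the developing brain, where targets such as Hes1, Nr2e1 and Rest have been described. miR-124 is best known as an abundant microRNA of differentiated neurons, with the splicing regulator Ptbp1 among its described targets.

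The mature miR-9 strands are shown because all 3 Mir9 loci encode them without a difference, so that reads holding only a mature strand cannot be assigned to a locus. Capitals mark the seed, bases 2 to 8, and the sequences are those of RefSeq (GRCm38.p6), written 5′ to 3′.
mmu-miR-9-5p: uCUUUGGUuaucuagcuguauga
mmu-miR-9-3p: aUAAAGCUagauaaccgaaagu
No other of the 1679 mature names in that table shares either seed.

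The 3 hairpins are shown because the counts of Mir9-1 and Mir9-3 went apart in the Q20 line, and only the bases outside the capitals tell the loci apart. Capitals mark the mature strands, the 5p strand first.
Mir9-1: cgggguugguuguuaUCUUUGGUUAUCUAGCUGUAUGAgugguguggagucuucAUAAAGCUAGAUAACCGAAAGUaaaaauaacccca
Mir9-2: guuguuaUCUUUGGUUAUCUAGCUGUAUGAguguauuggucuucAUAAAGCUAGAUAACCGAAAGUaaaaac
Mir9-3: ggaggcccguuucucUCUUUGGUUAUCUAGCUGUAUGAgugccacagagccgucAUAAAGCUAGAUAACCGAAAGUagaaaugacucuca
Mir9-1 and Mir9-2 were identical at 69 of 72 aligned bases, with a longest shared run of 33 bases. Mir9-3 was less alike, identical at 72 of 88 aligned bases to Mir9-1 and at 62 of 72 to Mir9-2, with a longest shared run of 26 bases in each case. Of the stretches of 22 bases, 44 of 68 occurred in Mir9-1 only, 27 of 51 in Mir9-2 only and 60 of 69 in Mir9-3 only. All stretches of 50 bases, the length of the reads, belonged to a single hairpin of the 3. How the authors' counting treated reads that fit several loci is not given in the sources used here, so the split of counts between the Mir9 loci is uncertain. The RefSeq table held no hairpin for Mir124a-1, Mir124a-2 and Mir124a-3.

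Detection of a microRNA gene went with its position relative to other transcripts (positions on GRCm38, GENCODE release 21). Mir9-3 lies at chr7:79505264-79505353 on the plus strand, in an intron of its host Mir9-3hg, and no exon of another gene covers it. Mir9-1 lies at chr3:88215598-88215686 on the plus strand and is covered by Gm25641 on the opposite strand, a gene without a count. Mir9-2, at chr13:83738814-83738885 on the plus strand, lies wholly inside an exon of the long noncoding RNA C130071C03Rik on the same strand. Mir124a-1, at chr14:64590657-64590741, lies in the same way inside an exon of its host Mir124a-1hg. Mir124a-2, at chr3:17795662-17795770, shares 27 of its 109 bases with an exon of Mir124-2hg. Mir124a-3, at chr2:180894040-180894107, shares 3 of its 68 bases with an exon of Gm27032.

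None of the 183 microRNA genes that lie wholly inside a same-strand exon of another gene had a count in any of the 24 libraries. In contrast, a count was seen in 307 of 818 microRNA genes free of other exons (37.5%), in 42 of 87 covered on the opposite strand only (48.3%) and in 38 of 86 covered in part on the same strand (44.2%). Mir9-2 and Mir124a-1 belong to the class without counts. Their 0 counts are therefore not taken as a level of these microRNAs, and only the hosts of Mir9-2 and Mir124a-1 are described below.

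**Figure D1:**
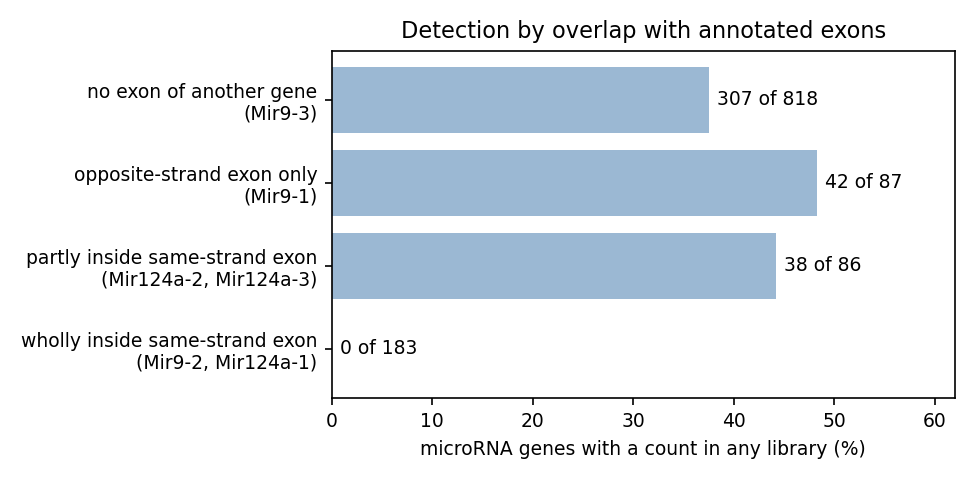
Percent of microRNA genes with a count in at least 1 of the 24 libraries (horizontal axis), by their overlap with exons of other genes (vertical axis), with the Mir9 and Mir124 loci of each class in brackets. The class of Mir9-2 and Mir124a-1 has 0 of 183 genes with a count, while the other classes lie between 37.5% and 48.3%.

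Depth limited all of these values. Library totals ran from 642384 to 2360434 counts in mESC and from 342022 to 682113 in NPC, and only 0.2345% of all counts fell on genes with a microRNA symbol. The microRNA counts per library were 3191 to 6357 in mESC and 336 to 671 in NPC. Htt itself had 3 and 2 counts in the KO mESC libraries against 8 and 8 in WT, and 1 and 1 in KO NPC against 9 and 2 in WT, too few to test. Of the 14 neural progenitor markers measured, 8 could be tested between the cell types by edgeR, and all 8 were called higher in NPC, where 30.4% of all genes were called higher. Fabp7, Tnc, Olig2 and Ptprz1, with 0 to 3 counts each in all of mESC, passed the filter through their NPC counts, so their direction was fixed by it. The markers' summed level was 164 to 402 CPM (counts divided by the library total as scaled by the TMM method, times 1e6) in NPC and 10.4 to 23.8 CPM in mESC. The 12 stem cell markers summed to 37.6 to 98.5 CPM in mESC and 0 to 5.17 CPM in NPC. The 14 feeder fibroblast markers summed to 0 to 6.82 CPM in mESC, with 14 counts of Mir143, 12 of Mir145a, 10 of Fbln1 and 1 of Thy1. The other 10, among them Dcn, Postn and Col1a1, were at 0 in mESC.

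Both Mir9 loci with readable counts were higher in NPC than in mESC. Mir9-1 had no count in any of the 12 mESC libraries and a count in all 12 NPC libraries. Mir9-3 had 14 counts in all of mESC and 137 in NPC.

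In NPC, Mir9-1 had 15 and 9 counts in KO, 12 and 8 in WT, 1 and 3 in Q20, 12 and 16 in Q50, 8 and 6 in Q92, and, in Q111, 13 and 10. The libraries of the cell types did not overlap, and the lowest NPC libraries were both of Q20. In CPM, the NPC libraries ran from 1.72 to 45.2 with a median of 19.5 and a mean of 20.1 ± 12.6 (SD, n = 12). The 0 counts of the mESC libraries together allow at most 0.178 CPM (3 counts over the group, counting error only). The pooled NPC level of Mir9-1 was 101.67-fold that limit (113 counts against a floor of 3), with the counting error of the 113 left out.

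Mir9-3 had 2 and 5 counts in KO mESC, 3 and 1 in WT, 0 and 0 in Q20, 1 and 1 in Q50, 0 and 0 in Q92, and, in Q111, 1 and 0. In NPC it had 15 and 10 counts in KO, 17 and 8 in WT, 15 and 17 in Q20, 8 and 13 in Q50, 14 and 9 in Q92, and, in Q111, 5 and 6. On the CPM scale the highest mESC library, at 5.23, lay below the lowest NPC library, at 12.9, so the cell types did not overlap. For neither Mir9 locus is the share of all tested genes that separate in this way given. The NPC mean was 21.9 ± 7.24 CPM (SD, n = 12). The ratio of the pooled levels was 26.4, with a 95% counting interval of 15.2 to 49.6.

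In the edgeR quasi-likelihood fit of 904 genes, both loci were called higher in NPC, where 30.4% of the genes tested were called higher and 58.4% in either direction. The log2 change was 6.95 ± 0.50 (SE) for Mir9-1 with an adjusted p of 2.51e-09, and 5.30 ± 0.37 for Mir9-3 with an adjusted p of 1.06e-10. These loci passed the low-count filter through their NPC counts, so their direction in this fit was fixed by it. With groups at 0 in mESC the fitted log2 changes depend on the prior count and are no bounds. Of the 39 microRNA genes in the same fit, 11 were called higher in NPC (28.2%) and 23 lower (59%). On plain library totals, which shift the median log2 change of all genes from -0.02 to 0.32 and the calls from 275 higher and 253 lower to 350 and 159, the changes were 7.23 and 5.56. With the Q20 groups left out, both calls held in edgeR, at 7.37 (adjusted p 2.77e-09) for Mir9-1 and 4.81 (adjusted p 7.42e-09) for Mir9-3. In RNA from whole cultures, fewer cells that make a microRNA and less of it per cell cannot be told apart.

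**Figure D2:**
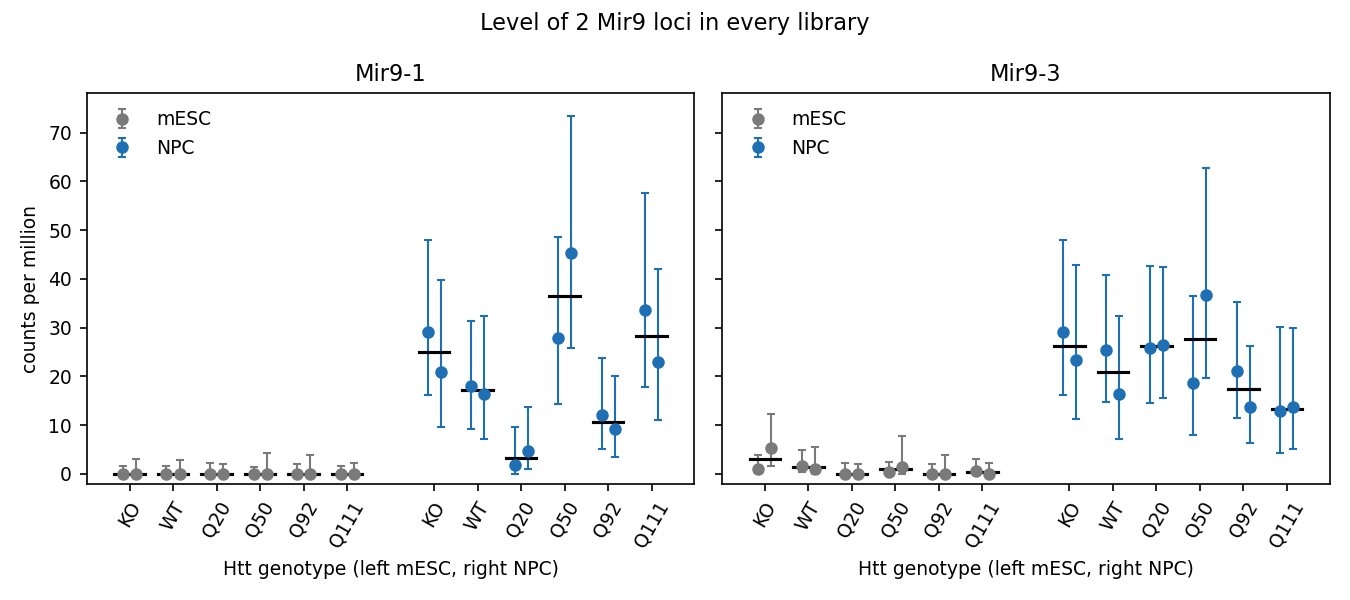
Level of Mir9-1 (left panel) and Mir9-3 (right panel) in CPM in each library, by Htt genotype, with mESC in grey and NPC in blue. Points are libraries with 95% Poisson intervals of their counts, and black bars are means of 2 libraries. Every NPC library lies above every mESC library at both loci, and the Q20 NPC libraries, at 1.72 and 4.68, are the lowest of NPC for Mir9-1 but not for Mir9-3.

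Within NPC the Mir9 loci ranked among the microRNA genes with the higher counted levels. Per 100 bases of gene, the mean NPC level was 24.4 CPM for Mir9-3 and 22.6 CPM for Mir9-1, the 13th and 15th highest of the 252 microRNA genes with a count. Mir181a-1 ranked first in NPC. In mESC, Mir9-3 ranked 104th of 330 microRNA genes with a count, at 1.05 CPM per 100 bases. Mir9-1 made up 2.12% ± 1.21 and Mir9-3 made up 2.44% ± 1.09 of the microRNA counts of an NPC library (SD, n = 12).

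The level of Mir9-1 differed among the NPC lines, whereas no difference was called for Mir9-3. By edgeR's quasi-likelihood F-test over the 6 genotypes, the adjusted p was 0.00623 for Mir9-1 and 0.458 for Mir9-3, and 37.2% of the 441 genes tested were called. Whether the loci differed from each other in this respect was not tested. The Mir9-1 call was lost without the Q20 group, where edgeR gave an adjusted p of 0.184, and without Q20 replicate 1, where it gave 0.0542. It was also lost without the filter on low counts, with an edgeR adjusted p of 0.0824 over 14269 genes.

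Mir9-1 was highest in Q50, at 36.5 ± 12.3 CPM (mean ± SD of 2 libraries), followed by Q111 at 28.3 ± 7.61 and KO at 25.0 ± 5.71. Then came WT at 17.2 ± 1.09, Q92 at 10.6 ± 2.00 and Q20 at 3.2 ± 2.09. The libraries of Q50, Q111 and KO overlapped one another. Those of KO lay above those of WT, but the Poisson intervals of these libraries overlapped. WT and Q92 did not overlap on the scaled totals but did on the plain library totals, where Q92 had 13.8 and 18.2 CPM and WT 17.6 and 18.2. The Q20 libraries lay below all others on either scale.

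Mir9-3 gave another order: Q50 at 27.6 ± 12.9 CPM, KO at 26.2 ± 4.06, Q20 at 26.2 ± 0.48, WT at 20.9 ± 6.38, Q92 at 17.4 ± 5.12 and Q111 at 13.3 ± 0.55. Neighbours in this order overlapped, apart from 2 pairs that lay close together. The lower Q20 library, at 25.8 CPM, stood just above the higher WT library, at 25.4, and the lower Q92 library, at 13.8, just above the higher Q111 library, at 13.7. Q20, the lowest line for Mir9-1, stood in the upper part of the range for Mir9-3.

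Against WT, Mir9-1 was called lower in Q20 NPC. Its 1 and 3 counts there compared with 12 and 8 in WT, a log2 change of -2.12 ± 0.66 with an edgeR adjusted p of 0.0418, in a comparison where 12.7% of the 441 genes were called and 4.08% were called lower. Mir9-3, with 15 and 17 counts in Q20 against 17 and 8 in WT, had a log2 change of 0.49 ± 0.42 (edgeR adjusted p 0.457). The call on Mir9-1 was close to the threshold. DESeq2 gave -2.35 with an adjusted p of 0.110, and edgeR without the low-count filter gave -2.40 with an adjusted p of 0.567. It was also lost on leaving out WT replicate 1 (edgeR adjusted p 0.0909), Q20 replicate 1 (0.240, with a log2 change of -1.66), Q20 replicate 2 (0.0762), Q92 replicate 1 (0.0617) or Q92 replicate 2 (0.0603).

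The other lines were not called against WT at either locus by edgeR. For Mir9-1 the log2 change was 0.65 ± 0.46 in KO (adjusted p 0.655; 1.36% of genes called), 1.00 ± 0.45 in Q50 (0.285; 6.58% called), -0.38 ± 0.51 in Q92 (0.620; 18.8% called) and 0.82 ± 0.47 in Q111 (0.302; 10.9% called). For Mir9-3 it was 0.40 ± 0.44 in KO (adjusted p 0.805), 0.29 ± 0.45 in Q50 (0.853), 0.03 ± 0.45 in Q92 (0.998) and -0.54 ± 0.51 in Q111 (0.547). The Mir9-3 values of Q50 and Q92 changed sign under other settings. These comparisons share the WT libraries.

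Repeat length had no called slope at either locus over the 8 knock-in NPC libraries. The log2 slope per 10 repeats was 0.15 ± 0.10 for Mir9-1 (edgeR adjusted p 0.535) and -0.09 ± 0.05 for Mir9-3 (edgeR adjusted p 0.429), where 6.45% of 403 genes were called. Without the Q20 line the Mir9-1 slope was -0.05 (edgeR adjusted p 0.842). With Q20 as the reference in place of WT, edgeR called Mir9-1 higher in Q50 by 3.12 (adjusted p 0.00175) and in Q111 by 2.95 (adjusted p 0.00388). It was not called in Q92, at 1.75 (edgeR adjusted p 0.0940). Of 441 genes tested, 78 were called for Q50, 63 for Q111 and 70 for Q92 against Q20. Q20 was the lowest line for Mir9-1, so these calls restate its low counts. In mESC no member passed the filter on low counts, and 0.0566% of 1766 genes were called among the mESC genotypes.

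The share of Mir9-1 in the summed counts of Mir9-1 and Mir9-3 sets the loci against each other within a library, whatever its depth. This measure was chosen after the values were seen and is given without a test. The share was 50.0% and 47.4% in KO, 41.4% and 50.0% in WT, and 60% and 55.2% in Q50. It was 36.4% and 40.0% in Q92 and 72.2% and 62.5% in Q111. In Q20 it was 6.25% (exact 95% binomial interval 0.158 to 30.2) and 15.0% (3.21 to 37.9), below every other NPC library.

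**Figure D3:**
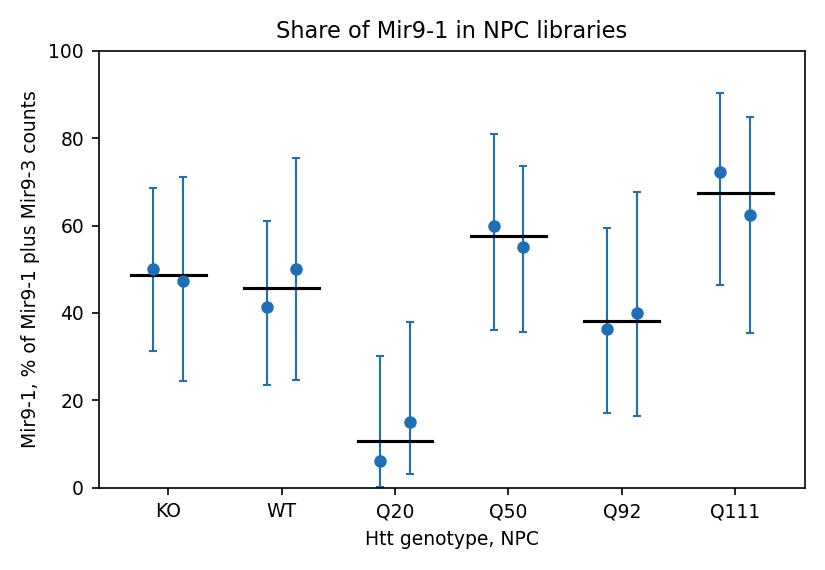
Mir9-1 counts as a percent of the Mir9-1 plus Mir9-3 counts (vertical axis) in each NPC library, by Htt genotype. Points are libraries with exact 95% binomial intervals, and black bars are means of 2 libraries. The Q20 libraries sit at 6.25% and 15.0%, and the other libraries between 36.4% and 72.2%.

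Against the microRNA counts of the same library, Mir9-1 made up 0.173% and 0.447% in the Q20 NPC libraries and 1.48% to 4.46% in the other 10. Mir9-3 made up 2.53% to 2.60% in Q20, inside the range of 1.36% to 4.46% of the others. The microRNA counts of the Q20 libraries include 199 and 233 counts of stem cell microRNAs, which lower these shares in Q20.

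Other RNAs also set the Q20 NPC libraries apart. MicroRNA genes of the stem cell clusters, 11 of them measured, had 199 and 233 counts in Q20 NPC and 1 count in total in the other 10 NPC libraries. In mESC they had 2131 to 4274 counts per library. Mir302b, a member of the Mir302 cluster, had 123 and 138 of the Q20 NPC counts. The Q20 line also stood apart at Mir302b in mESC, with 1049 and 1122 counts against 2 to 227 in the other mESC libraries. Among the mESC genotypes edgeR called a difference for it (adjusted p 0.00352). The mRNA markers of stem cells were near 0: 3 of the 12 had a count in Q20 NPC, their sum was 3.12 to 5.17 CPM against 0 to 3.87 CPM in the other NPC libraries, and Nanog, Zfp42, Tdgf1 and Fgf4 were at 0 in all NPC. Progenitor markers, 14 of 14 with a count, summed to 164 to 176 CPM in Q20 and to 204 to 402 CPM in the other NPC libraries. Of the 8 tested in Q20 against WT, edgeR called 2 lower, Tnc (-3.43) and Slc1a3 (-1.89), and 0 higher. Vim, at 0.13, and Ptprz1, at -0.08, were not called. Q20 held 16 of the 39 NPC counts of Hes5 and 7 of the 13 of Sox1. Glia markers, 5 of 8 with a count in Q20, summed to 17.2 to 22.4 CPM in Q20 and 0 to 23.3 CPM in the others, with Gfap at 0 in all NPC. Neuron markers, 10 of 11 with a count in the Q20 libraries and 6 of 11 in the other 10 NPC libraries, summed to 25.0 to 44.8 CPM in Q20 and 16.4 to 46.4 CPM in the others, with Rbfox3 at 0 in all libraries. The neuron markers did not go 1 way. Of the NPC counts of Stmn2, 7 of 7 were in Q20, and of those of Dcx 7 of 10. Map2, with the most NPC counts of the list, had 19 of 158 in Q20, and Gap43 had 1 of 14. The part of these RNAs in the Mir9-1 result was not tested.

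By the correlation of log2 CPM, the genes most like Mir9-1 over all 24 libraries were Mirlet7c-1 (Pearson r 0.979), Mir181a-1 (0.969) and Mir181a-2 (0.966). Most like Mir9-3 were Gm26168 (0.958), the Y RNA Rny1 (0.957) and Ank2 (0.949). These are descriptions: the 24 points share the split into cell types and their sequencing depth, and 30 of 903 genes reached 0.9 with Mir9-1 and 25 with Mir9-3. The loci correlated with each other at 0.867. Over the 12 NPC libraries alone the leaders for Mir9-1 were Mir181a-1 (0.835), Mirlet7c-1 (0.835) and Mir16-1 (0.824), and for Mir9-3 Csnk1a1 (0.794), Ppp1cb (0.755) and Itm2b (0.748), over 440 genes.

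The microRNAs nearest to Mir9-1 are given with their Q20 counts as a description only, since they were picked for following Mir9-1 in libraries that include Q20. Mir181a-1 had 29 and 32 counts in Q20 against 55 to 218 in the other NPC libraries, and Mir181a-2 had 6 and 10 against 11 to 50. Mirlet7c-1 had 2 and 6 counts in Q20 against 11 to 26. Mir16-1 had 2 and 3 against 6 to 15. In each of the 4, the Q20 libraries lay below all other NPC libraries.

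The hosts of the Mir9 loci were thinly covered. C130071C03Rik, the noncoding RNA whose exon holds Mir9-2, had 4 and 5 counts in KO NPC, 12 and 1 in WT, 3 and 3 in Q20, 1 and 4 in Q50, 1 and 2 in Q92, and, in Q111, 3 and 1. It had 1 count in all of mESC, in Q50 replicate 2. Every NPC library therefore had a count, and the pooled ratio was 108, with a 95% counting interval of 18.3 to 4370. Mir9-2 itself had no count, like all 183 microRNA genes that lie wholly inside a same-strand exon. Whether any of its reads entered the host counts is not given, so the host counts are no level of Mir9-2.

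Mir9-3hg, the host of Mir9-3, had 3 and 3 counts in WT NPC, 2 and 1 in Q20, 0 and 1 in Q50 and 1 and 0 in Q92. It had none in KO and Q111 NPC and 1 in all of mESC. The pooled ratio was 29.7 (4.32 to 1278, 95% counting interval). Without the filter on low counts, an additive edgeR model of cell type and genotype, added after the data were seen, called both hosts higher in NPC, with 4.12% of 19429 genes called higher. The log2 change was 4.67 for C130071C03Rik (adjusted p 9.05e-13) and 2.73 for Mir9-3hg (adjusted p 0.00413). The edgeR fit of group means without a filter also called C130071C03Rik (adjusted p 7.49e-10; 10.4% of genes called) but could not test Mir9-3hg, which had groups at 0 in both cell types.

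The Mir124 members had far fewer counts than the Mir9 loci, and none passed the filter on low counts. Mir124a-2 had 8 counts in 6 of the 12 NPC libraries and none in mESC: 1 and 0 in KO, 2 and 1 in WT, 1 and 1 in Q20 and 0 and 2 in Q50. The libraries of Q92 and Q111 had none, and the cell types overlapped at 0. The pooled NPC level was 7.20-fold the mESC limit (8 counts against a floor of 3 over the mESC group), with the counting error of the 8 left out. The additive edgeR model without a filter gave a log2 change of 3.05 (adjusted p 0.00504), whereas a fit of group means could not test it, having groups at 0 in both cell types.

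Mir124a-3 had 6 counts in 5 mESC libraries and 2 counts in 2 NPC libraries, 1 each in KO replicate 2 and Q111 replicate 2. The ratio of NPC to mESC was 0.90, with a counting interval of 0.0888 to 5.03, so no difference could be seen at this depth. In the additive edgeR model its adjusted p was 0.776. Per 100 bases, the NPC level was 1.22 CPM for Mir124a-2 and 0.566 CPM for Mir124a-3. These were ranks 73 and 124 of the 252 microRNA genes with a count, against ranks 13 and 15 of the Mir9 loci. All of these ranks are of counts per locus, and how reads that fit several loci were treated is not given. They are therefore no measure of how abundant the mature microRNAs were.

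Of the Mir124 hosts, Mir124a-1hg was seen in mESC only. It had 1 and 1 counts in KO mESC, 2 and 2 in WT, 1 and 0 in Q20, 0 and 3 in Q50, 0 and 2 in Q92, and, in Q111, 0 and 1, or 13 in all, and none in NPC. Because the NPC libraries are shallower, its pooled mESC level was only 1.61-fold the NPC limit (13 counts against a floor of 3 over the NPC group). The counting error of the 13 was left out. The additive edgeR model gave -3.03 with an adjusted p of 0.00942, with 8.53% of genes called lower, and edgeR's fit of group means without a filter gave an adjusted p of 0.0653. Mir124-2hg, the host at Mir124a-2, had 1 count in mESC and 2 in NPC, and its adjusted p in the additive edgeR model was 0.759.

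Among other microRNAs associated with neural cells, 15 of the 25 listed had a count and 4 could be tested between the cell types. In edgeR, 3 were called higher in NPC and 1 lower, where 30.4% of all genes were called higher and 28% lower. Mir181a-1, Mirlet7c-1 and Mir181a-2 rose by 9.39 ± 0.39, 7.65 ± 0.51 and 7.64 ± 0.38 on the log2 scale. Mir7-1 fell, with 16 to 120 counts in mESC libraries and 2 to 11 in NPC, a log2 change of -1.82 ± 0.28 (edgeR adjusted p 5.62e-06). Mir181a-1, Mir181a-2 and Mirlet7c-1 had 3, 3 and 0 counts in all of mESC and passed the filter through their NPC counts, so the direction of these 3 was fixed by the filter. Of the stem cell microRNAs 6 passed the filter, of which Mir367 could not be tested because groups were at 0 in both cell types. The other 5 were called lower, from -6.18 ± 0.64 for Mir302b to -11.70 ± 0.34 for Mir293, where 28% of all genes were called lower. In NPC other than Q20 the counts were 1 for Mir302b and 0 for Mir291a, Mir292, Mir293 and Mir295. Outside Q20 these 5 thus passed the filter through their mESC counts, which fixed their direction.

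The proteins that make and use microRNAs were seen through fragments of their mRNAs. Of 17 listed genes 5 were tested, and 1 was called by edgeR, where 58.4% of all genes were called. This was Tnrc6b, an Argonaute partner, at 0.92 ± 0.29 (adjusted p 0.00821). Tnrc6a had a log2 change of 0.80 ± 0.37 (adjusted p 0.0706), Ago1 of -0.69 ± 0.51 (0.254), Ago2 of 0.12 ± 0.32 (0.760) and Ddx5, a helicase of the Drosha complex, of 0.08 ± 0.19 (0.729). On plain library totals edgeR also called Tnrc6a, at 1.12 (adjusted p 0.0198).

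**Figure D4:**
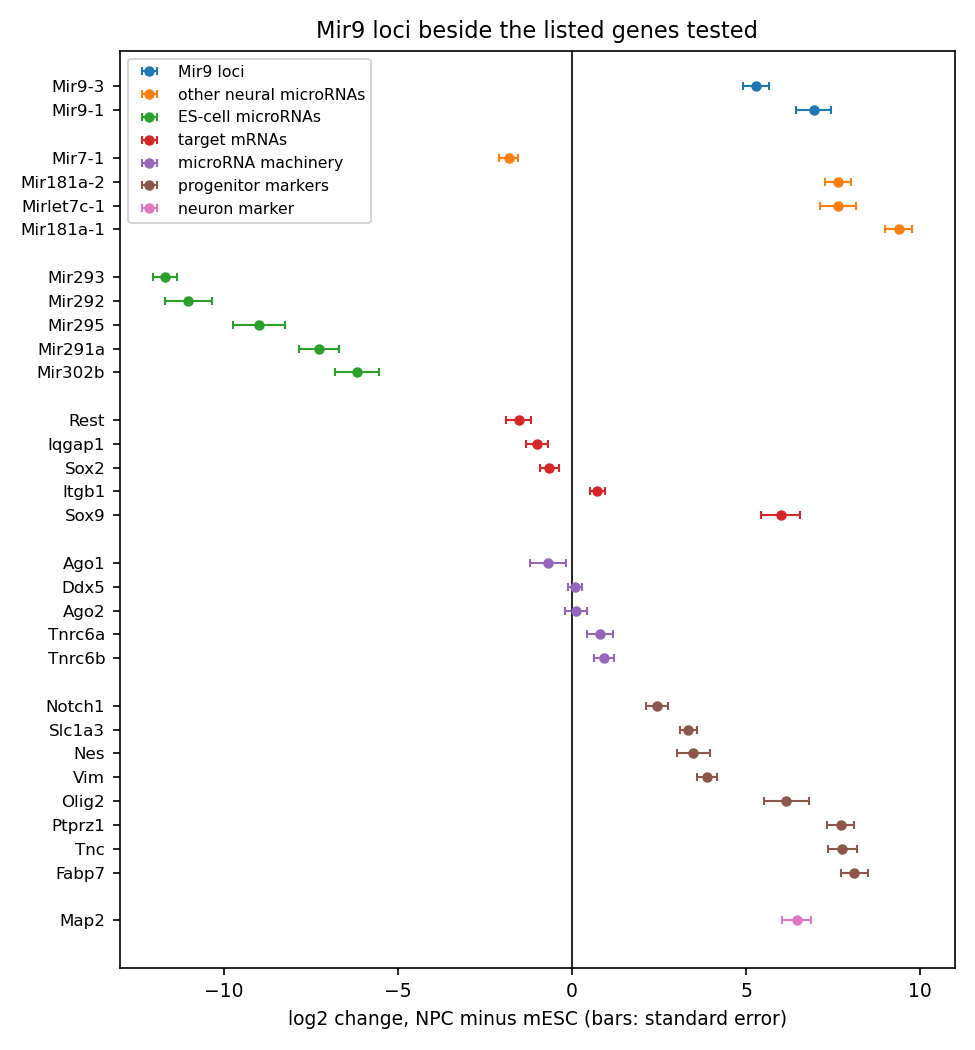
Log2 change between NPC and mESC (horizontal axis, bars are standard errors of the edgeR fit) for the 2 Mir9 loci and the listed genes that could be tested, coloured by list. The Mir9 loci, at 5.30 and 6.95, lie on the side of the progenitor markers and of Mir181a, and the stem cell microRNAs lie on the other side. The low-count filter fixed the direction of genes with few counts in a cell type, among them the Mir9 loci, Mir181a, Fabp7, Tnc, Olig2 and Ptprz1. Outside Q20 the same held for the stem cell microRNAs.

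Of 28 mRNAs described as targets of miR-9 or miR-124, 26 had a count, mostly too few for a test. All 5 tested were called by edgeR between the cell types, 3 lower and 2 higher in NPC, where 58.4% of all genes were called. Rest, a repressor of neuronal genes, had 8 to 32 counts in mESC libraries and 0 to 8 in NPC, a log2 change of -1.54 ± 0.36 (adjusted p 0.000787). Iqgap1, a cytoskeletal scaffold protein, changed by -1.02 ± 0.32 (adjusted p 0.00932) and Sox2, a transcription factor of stem and progenitor cells, by -0.65 ± 0.26 (adjusted p 0.0379). Sox9, a transcription factor of neural progenitors and glia, rose by 6.0 ± 0.56 (edgeR adjusted p 3.97e-08). With 1 count in all of mESC and 67 in NPC, Sox9 passed the filter through its NPC counts, so its direction was fixed by it. The integrin Itgb1 rose by 0.73 ± 0.22 (edgeR adjusted p 0.00671). On plain library totals the edgeR calls on Iqgap1 (-0.65, adjusted p 0.0936) and Sox2 (-0.29, adjusted p 0.346) were lost, while those on Rest (-1.21), Itgb1 (1.08) and Sox9 (6.28) held. The CPM ranges of the cell types overlapped for Rest, Iqgap1, Sox2 and Itgb1 but not for Sox9, at 0 to 0.763 CPM in mESC and 2.33 to 19.8 CPM in NPC.

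The 3′ untranslated regions of these targets were searched on the transcript strand for ACCAAAG, the complement of the miR-9-5p seed printed above. It occurred in 12 of the 28, and in 2564 of the 21020 longest such regions of all coding genes (12.2%). The list mixes targets described for miR-9 with targets described for miR-124, and no miR-124 seed was searched. A gene without a match may thus be listed for miR-124 only, and a match need not be the site described for its gene. The 2 values are not like with like, because the listed genes are described targets and a match is commoner in long regions. Over regions as long as each of the 28, the percent with a match ran from 3.61% (Ezh2) to 80% (Onecut2). Of the 5 tested targets, Rest and Iqgap1 held 1 match each, and the matches are printed as RNA with the match in capitals (GRCm38, GENCODE release 21).
Rest, chr5:77286166-77286192 on the plus strand: ucugaggcaaACCAAAGguauauuucu
Iqgap1, chr7:80713094-80713120 on the minus strand: agagugccuuACCAAAGuauaaauuua
Among regions of about the same length, 30.3% held a match for Rest and 18.5% for Iqgap1. The regions of Sox2, Sox9 and Itgb1 held none. A match is a string of letters and not a measured site.

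Over all coding genes tested between the cell types, those with a match had the higher median change. The median log2 change was 0.42 over the 108 genes with a match, of which 43 were called higher and 20 lower. It was 0.02 over the 548 genes without a match, of which 159 were called higher and 133 lower. The untranslated regions of the former were longer, with a median of 3042 bases against 1536 bases. No test was made of this difference.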

How the data were processed

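The deposited table holds raw whole-number counts per Ensembl gene for 24 libraries. The submitters' processing notes name CASAVA 1.8, STAR, HTSeq and the build GRCm38.p6. Trimming, strand setting and the treatment of reads fitting several loci are not given in the sources used here, and neither is any duplicate removal. Columns named Q89 were taken as Q92, by the repeat number in the growth protocol. Of the identifiers, 55154 matched GENCODE mouse release 21, and the rest held 57 of 25027120 counts.

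Tests used edgeR 4.0.16 in R 4.3.3 (glmQLFit, glmQLFTest) with TMM scaling and filterByExpr (minimum count 10, minimum total 15). P-values were adjusted by Benjamini-Hochberg over all genes tested, and genes were called at 0.05. Genotype comparisons used the 12 libraries of a cell type, NPC against mESC used 12 group means, and slopes used 8 knock-in libraries. CPM are counts over the TMM-scaled total times 1e6, with a prior count of 2 for correlations. Intervals and floors of 3 counts cover counting error only.

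Replicate numbers did not mark a stated batch and were not treated as pairs. Even so, differences between replicates 1 and 2 correlated above 0.1 in 10 of 15 pairs of mESC groups (r up to 0.516). In NPC they did so in 4 of 15 (r up to 0.437). Replicate 1 was the deeper in every mESC line but Q20. In the mESC lines other than Q20, microRNA genes took 0.163% to 0.234% of the counts of replicate 1 and 0.333% to 0.497% of replicate 2. In Q20 mESC they took 0.302% and 0.334%. In NPC the shares were 0.0872% and 0.159% in KO, 0.0582% and 0.123% in WT, and 0.120% and 0.124% in Q20. In Q92 and Q111 NPC, replicate 1 had the higher share.

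Alternatives were DESeq2 1.42.0 and its size factors, library totals, no filter, microRNA genes alone, a replicate block, an additive model, WT libraries alone, no Q20, Q20 as reference and each library left out. The fits were first run on simulated counts as a check of the code. The simulated spread was below that estimated for NPC against mESC, so these runs give no error rate for the data. All members were named, as were list genes testable between NPC and mESC and the 3 genes most correlated with each tested locus. Members and lists were chosen with earlier results of these data known.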

Additional observations from a re-analysis of the deposited data

Results flagged for a closer look

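On the CPM scale, the difference between Q20 and WT at Mir9-3 had opposite signs in the cell types. In mESC the Q20 mean was 1.324 CPM below WT (-1.324), with 0 and 0 counts in Q20 against 3 and 1 in WT. In NPC the Q20 mean was 5.263 CPM above WT, with 15 and 17 counts against 17 and 8. On the CPM scale both Q20 libraries lay below both WT libraries in mESC and above both in NPC, at 25.8 and 26.5 against 25.4 and 16.4. As a percent of microRNA counts the NPC mean was lower in Q20 (2.56%) than in WT (2.88%), so the signs were not opposite on that scale. The difference between the cell types was not tested, and the mESC values rest on 4 counts in all.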

How the results depend on the processing

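Under every alternative run, Mir9-1 and Mir9-3 were called higher in NPC than in mESC. In the runs with the low-count filter their direction was fixed by it. Without the filter the edgeR fit of group means gave 6.53 for Mir9-1 (adjusted p 5.996e-22) and 4.79 for Mir9-3 (adjusted p 3.67e-24). In that fit 2.39% of 19429 genes were called higher. With 1 library left out the log2 change lay between 6.82 and 7.06 for Mir9-1 and between 5.11 and 5.56 for Mir9-3. The genotype calls on Mir9-1 within NPC were less firm: the adjusted p of any difference was 0.0016 to 0.0542 with 1 library left out, 0.0824 with no filter and 0.184 without Q20. Against WT, Mir9-1 in Q20 was -3.09 to -1.66 with 1 library left out, -2.40 with no filter and -2.35 by DESeq2. With Q20 as the reference, Mir9-1 was 3.12 in Q50, 2.95 in Q111 and 1.75 in Q92, and Mir9-3 was -0.21 in Q50 and -0.47 in Q92. Mir9-3 against WT also changed sign with no filter (-0.084 in Q50, -0.34 in Q92) and in Q92 with DESeq2 size factors (-0.14) and the DESeq2 test (-0.13). It ran from -0.24 to 0.71 in Q50 and from -0.30 to 0.37 in Q92 with 1 library left out. The Mir9-1 slope was -0.048 without Q20. The cause of these changes was not tested.

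Counts of called genes also moved. With no filter on low counts there were 2024 for NPC against mESC, 6 among mESC genotypes, 0 for KO, 30 for Q20, 0 for Q50, 27 for Q92, 27 for Q111 and 50 for the slope, with 342 (KO) and 277 (Q50) at an unadjusted p under 0.05 in edgeR. With microRNA genes alone, where fewer genes are tested, these were 34, 3, 0, 11, 2, 1, 0 and 6, and 14 for any difference in NPC (unadjusted, 0 for KO and 2 for Q111). The DESeq2 test gave 7 among mESC genotypes, 24 for KO, 33 for Q20 and 11 for the slope. DESeq2 size factors gave 10 for KO and 19 for Q50, and library totals 1 for KO and 3 among mESC genotypes. NPC against mESC had 2458 in the additive model with no filter, which was chosen after seeing the data, and 215 with WT libraries alone. Without Q20, any difference in NPC had 87 and the slope 17, and Q50 had 78 with Q20 as the reference. With 1 library left out, the counts were 97 to 225 for any difference in NPC, 0 to 2 in mESC (29 to 30 unadjusted where 0), 0 to 22 for KO (38 unadjusted where 0), 20 to 69 for Q20, 2 to 40 for Q50, 10 to 94 for Q92, 14 to 111 for Q111 and 6 to 26 for the slope.

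With the replicate block, 29 genes were called among mESC genotypes and 9 for the slope. Blocking changed no call on Mir9-1 or Mir9-3. For Q20 against WT the blocked Mir9-1 change was -2.11, with an edgeR adjusted p of 0.0399.

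Mir9-1 and Mir9-3 rest on 1 to 17 counts per NPC library and the Mir124 loci on 0 to 2, so differences among lines are visible only when large. Loci inside same-strand exons gave no level, and shared mature sequences leave the split between Mir9 loci uncertain.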
